A study of Homo sapiens with 6 samples.

Results

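Mitochondrial ribosomal protein (MRP) genes were defined as the rows of the count table whose Entrez identifier maps to a protein-coding gene with a symbol made of MRPL or MRPS, a number and an optional letter. The reference annotation holds 77 such genes. Of these, 74 were among the 12703 genes of the table, 48 named MRPL and 26 named MRPS, while MRPS18B, MRPS24 and MRPL45 were not analysed here. RNA came from the human prostate cancer line PC3. Lentivirus carrying GCNT1 gave 3 stable lines that overexpress it, and negative-control virus gave 3 control lines. GCNT1 encodes a glycosyltransferase that branches O-glycans, and the comparison asks which genes change their expression when it is overexpressed. Each line gave 1 stranded mRNA library, counted per gene. Total counts were 12755888, 12717300 and 12125672 in control libraries 1 to 3 and 11392213, 13411484 and 13825704 in GCNT1 overexpressing libraries 1 to 3. Whether each line is a clone or a pool of transduced cells is not given in the sources used here, and differences between the lines other than GCNT1 cannot be told apart from the overexpression.

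Mitochondria carry their own ribosome, which makes the few proteins encoded by mitochondrial DNA, all of them subunits of the respiratory chain and ATP synthase. Its ribosomal RNAs are transcribed inside the organelle, but every one of its proteins is encoded in the nucleus, made in the cytosol and imported, so that assembly of the particle depends on transcripts from both genomes. Some mitoribosomal proteins descend from proteins of the bacterial ribosome and others were added during the evolution of mitochondria.

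The targeted gene, GCNT1, had few reads, with counts of 9, 13 and 8 in controls and of 13, 16 and 35 where it was overexpressed. The last of these libraries was the highest, and counts in the lowest overexpressing library equalled those in the highest control, although after scaling for depth the groups did not overlap. The quasi-likelihood fit in edgeR gave a log2 fold change of 0.98 with a standard error of 0.37 (Benjamini-Hochberg adjusted p = 0.0362). Without GCNT1 overexpression replicate 3 it was 0.49 (Benjamini-Hochberg adjusted p = 0.269 in edgeR, the highest of a range from 0.0110 over the alternatives). It did not pass without control replicate 1 (0.91) or control replicate 3 (0.88) either, so the labels are checked here only by a low count. Whether reads of the transgene fall on this row is not given in the sources used here. Epithelial keratins were expressed, with KRT18 at 253 ± 7.9 and KRT8 at 222 ± 7.8 CPM (counts scaled to library depth; SD, n = 3) in controls. EPCAM had 5.54 CPM and CDH1 3.59 CPM in controls, and CDH1 fell to 1.10 CPM. Of the genes held at a low level in PC3 cells, KLK3 and KLK2 were not among the genes analysed, and TMPRSS2 had 4.20 CPM in controls. Markers of leukocytes, endothelium and fibroblasts were represented by 2 of 9 genes, COL1A1 and PECAM1. They moved in opposite directions, COL1A1 from a mean of 14.6 to 8.55 CPM and PECAM1 from 1.77 to 4.43 CPM, and their part in the results was not tested. As RNA was taken from whole cultures, fewer cells of a type and less RNA per cell cannot be told apart.

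Few MRP genes passed the threshold on fold change, and at an adjusted p below 0.05 more members rose than fell. A gene was called differentially expressed where its adjusted p was below 0.05 and its log2 fold change reached 0.58 in either direction. By this rule 3 of the 74 members were called, MRPS2 and MRPS25 higher and MRPL36 lower, against 19.3% of all genes tested (8.28% higher and 11.1% lower) and 15.5% of the 10399 genes within the members' range of CPM. With the adjusted p alone, 41 of 74 members passed in edgeR's test, against 57.6% of all genes. Of these 30 rose and 11 fell, where 28.3% of all genes rose and 29.3% fell. The libraries of the groups did not overlap in 40 members, 29 with higher and 11 with lower values in GCNT1 overexpressing cells, against 62.5% of all genes. The median log2 fold change was 0.11 over the members and 0.00095 over all genes, and its standard deviation was 0.28 over the members and 0.95 over all genes placed on a chromosome. Scaling by library size alone moved the median of all genes to 0.06 and that of the members to 0.17, and called 6 members, adding MRPL41, MRPL50 and MRPS33. The count of called members was also 6 without GCNT1 overexpression replicate 2, 6 without GCNT1 overexpression replicate 3 and 5 without control replicate 3. In each of these settings the 3 members named first were among those called, and no member beyond MRPL36 was called lower.

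Summed over the members, the level was 4400, 4494 and 4654 CPM in control libraries 1 to 3 and 5021, 4690 and 4765 CPM in GCNT1 overexpressing libraries 1 to 3. The sums did not overlap, and the highest was that of GCNT1 overexpressing library 1. Without that library the number of members that rose was 24 and the number that fell was 16. Within a group the members varied little, with a median coefficient of variation of 4.50% in controls and 5.49% in GCNT1 overexpressing cells. Depth was ample for most of them, as 72 members had at least 100 counts in every library. The lowest count was 33, for MRPL23.

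**Figure D1:**
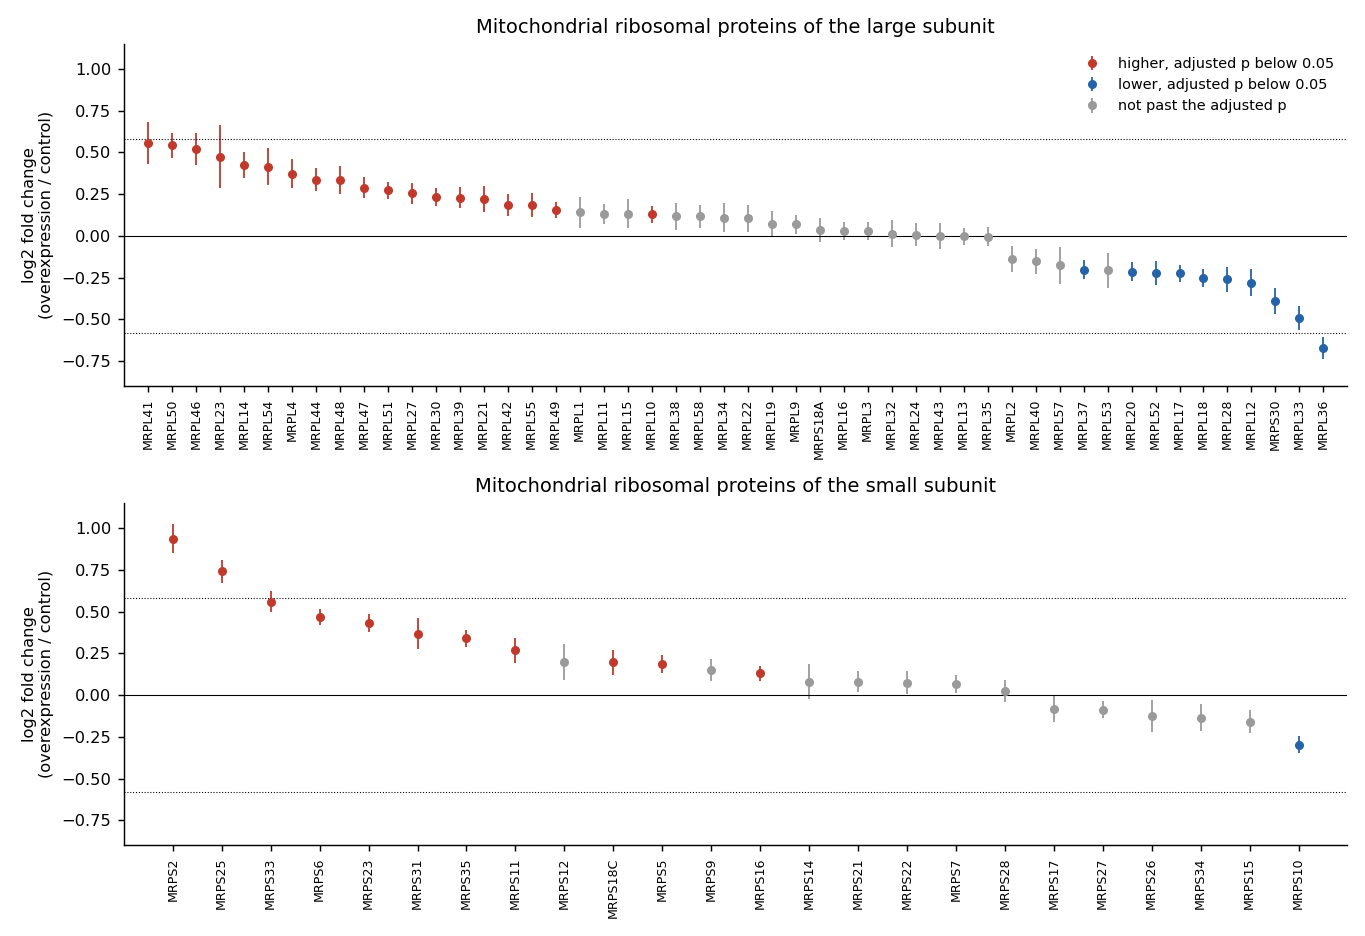
Log2 fold change (GCNT1 overexpression over control) of the 74 members, sorted within the large subunit (top, 50 genes) and the small subunit (bottom, 24 genes). Points are edgeR estimates, bars are standard errors, and dotted lines mark log2 fold changes of 0.58 in either direction, beyond which only MRPS2 and MRPS25 lie above and MRPL36 below.

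The large subunit holds the peptidyl transferase centre, where amino acids are joined. Of its 50 measured proteins 19 rose and 10 fell, and 21 did not pass the adjusted p, with a median log2 fold change of 0.11. MRPL36, the mitochondrial form of a small zinc-binding protein of the bacterial large subunit, was the called member of this subunit. MRPL36 was measured at 43.0, 44.5 and 45.9 CPM in control libraries 1 to 3 and at 29.0, 26.6 and 28.2 CPM in GCNT1 overexpressing libraries 1 to 3. The control libraries lay within 3 CPM of each other, and every overexpressing library was below them. The log2 fold change was -0.67 (standard error 0.07, Benjamini-Hochberg adjusted p = 2.22e-06, edgeR). The gene lies on chromosome 5 of hg38 from 1798385 to 1801434 on the minus strand and overlaps NDUFS6, a subunit of respiratory complex I on the opposite strand, which fell by 0.98 on the log2 scale. The call was not made by glmTreat, edgeR's test against the fold threshold, and relative to the 50 nearest genes the value was 0.41, of the opposite sign. How the counting treated strand is not given in the sources used here, so reads of the overlap cannot be told apart. Its expression in the controls, 73.0 CPM per kilobase of transcript, was above the median of the members, which was 42.2, and was 45.9 in GCNT1 overexpressing cells.

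MRPL33, whose bacterial counterpart sits near the exit site for transfer RNA, was measured at 40.8, 40.6 and 38.3 CPM in the controls and at 30.6, 27.6 and 27.0 CPM with overexpression. No library of either group reached into the other, and the log2 fold change was -0.49 (standard error 0.07, Benjamini-Hochberg adjusted p = 6.02e-05, edgeR). MRPS30, which despite its symbol is a protein of the large subunit that bacteria lack, was measured at 40.7, 34.7 and 38.2 CPM in the controls and at 30.8, 28.4 and 27.6 CPM with overexpression. Control library 2 was the lowest of its group and still exceeded all libraries with overexpression. For this gene the log2 fold change was -0.39 (standard error 0.08, Benjamini-Hochberg adjusted p = 0.000802, edgeR). MRPL12, the stalk protein through which translation factors are recruited, had 86.6, 90.9 and 102.7 CPM in the controls and 86.3, 70.4 and 74.3 CPM with overexpression. GCNT1 overexpressing library 1 came within 1 CPM of control library 1, and the log2 fold change was -0.28 (standard error 0.08, Benjamini-Hochberg adjusted p = 0.00951, edgeR). MRPL28, MRPL18, MRPL17 and MRPL20, which descend from bacterial proteins, fell by 0.26, 0.25, 0.22 and 0.21 on the log2 scale, and of these only MRPL28 had overlapping groups. MRPL28 no longer passed without GCNT1 overexpression replicate 3 (log2 fold change -0.21, Benjamini-Hochberg adjusted p = 0.0563, edgeR, the highest of a range from 0.000146). Relative to the 50 nearest genes the values of MRPL33, MRPS30, MRPL12, MRPL18 and MRPL20 turned positive. They were 0.0111, 0.23, 0.0491, 0.18 and 0.11, differences that were not tested.

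Among the rises of the large subunit, MRPL41, a protein that bacteria lack, was measured at 21.5, 20.1 and 23.8 CPM in the controls and at 39.6, 26.4 and 30.8 CPM in GCNT1 overexpressing libraries. The overexpressing libraries were all higher, but spread from 26.4 to 39.6 CPM. Its log2 fold change was 0.56 (standard error 0.13, Benjamini-Hochberg adjusted p = 0.00211, edgeR). The value for MRPL41 relative to the 50 nearest genes was -0.0587. MRPL50, also absent from bacteria, had 27.2, 24.8 and 27.7 CPM in the controls and 41.4, 36.1 and 38.8 CPM with overexpression, again without overlap. This amounted to a log2 fold change of 0.54 (standard error 0.08, Benjamini-Hochberg adjusted p = 4.84e-05, edgeR). MRPL46 had 21.8, 18.3 and 22.3 CPM in the controls and 33.4, 28.8 and 27.5 CPM with overexpression, with a log2 fold change of 0.52 (standard error 0.10, Benjamini-Hochberg adjusted p = 0.000482, edgeR). Groups of MRPL46 did not overlap either. MRPL23, a protein at the exit of the peptide tunnel in bacteria, was the least abundant in counts, with 33, 45 and 48 counts in the controls and 64, 66 and 57 with overexpression. On the CPM scale its groups overlapped, since GCNT1 overexpressing library 3 (4.04 CPM) lay just below control library 3 (4.06 CPM). Its log2 fold change of 0.47 (standard error 0.19, Benjamini-Hochberg adjusted p = 0.0466, edgeR) passed in 2 of the 6 fits that left out a library, those without GCNT1 overexpression replicate 3 and without control replicate 3, in which it reached 0.59 and 0.61. MRPL58, the peptidyl-tRNA hydrolase that became part of the large subunit, had 60.8, 61.4 and 68.8 CPM in the controls and 73.6, 65.5 and 68.1 CPM with overexpression. Its groups overlapped, and the log2 fold change of 0.12 did not pass the adjusted p (Benjamini-Hochberg adjusted p = 0.154, edgeR). It did pass with library size alone and without control replicate 3 (Benjamini-Hochberg adjusted p = 0.0354 and 0.0442 in edgeR, in a range up to 0.379).

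The small subunit binds the messenger RNA and decodes it. Of its 24 measured proteins 11 rose, 1 fell and 12 did not pass the adjusted p, with a median log2 fold change of 0.14. Without GCNT1 overexpression replicate 1 the number that fell was 3, and without control replicate 1 it was 2. MRPS2, the mitochondrial form of a universally conserved protein of the small subunit, was measured at 39.1, 44.3 and 48.5 CPM in the controls and at 94.2, 78.6 and 80.1 CPM in GCNT1 overexpressing libraries 1 to 3. The lowest overexpressing library exceeded the highest control by more than 30 CPM. The log2 fold change was 0.94 (standard error 0.09, Benjamini-Hochberg adjusted p = 1.10e-06, edgeR), the highest among the members. For MRPS2 the value relative to the 50 nearest genes was 0.37, short of the threshold for a call, against 0.74 for MRPS25. MRPS25, a small-subunit protein without a bacterial counterpart, was measured at 31.1, 28.8 and 28.2 CPM in the controls and at 47.0, 48.9 and 51.2 CPM with overexpression. Both groups were narrow and lay far apart, at 29.3 ± 1.5 and 49.0 ± 2.1 CPM (SD, n = 3 each). Its log2 fold change was 0.74 (standard error 0.07, Benjamini-Hochberg adjusted p = 1.05e-06, edgeR).

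**Figure D2:**
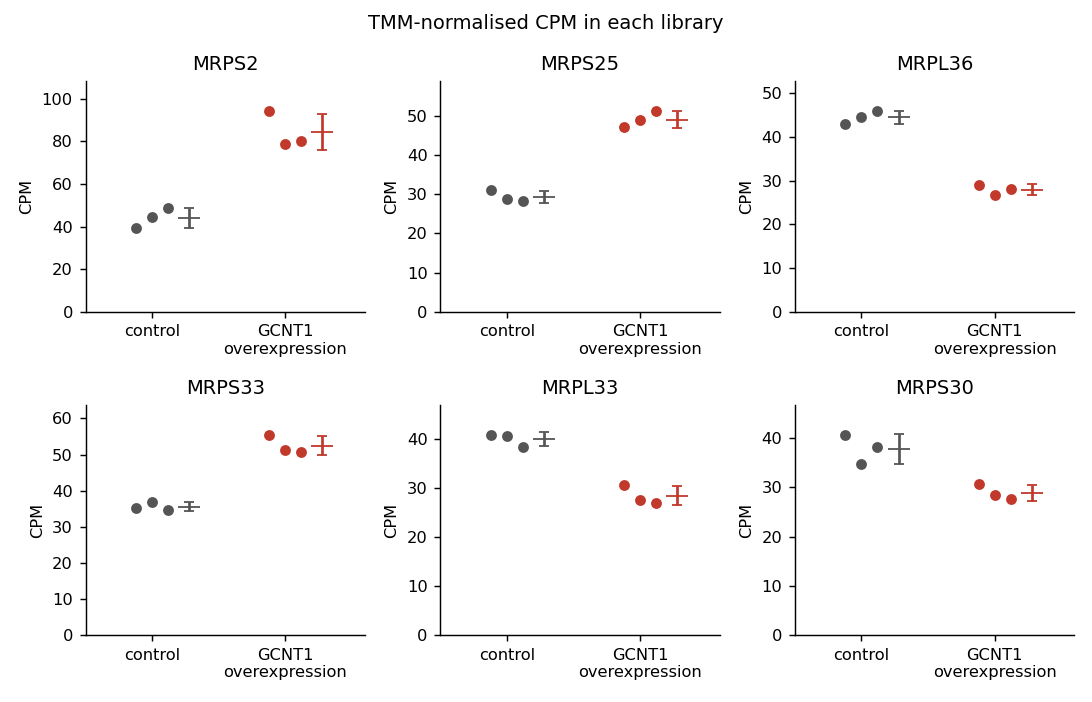
TMM-normalised CPM of 6 members in each library. Points are libraries 1 to 3 from left to right, the line beside them is the group mean with its standard deviation (n = 3), each vertical axis starts at 0, and in none of the 6 genes do the groups overlap, MRPS2, MRPS25 and MRPS33 being higher and MRPL36, MRPL33 and MRPS30 lower in GCNT1 overexpressing cells.

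MRPS33, also specific to mitochondria, had 35.1, 36.9 and 34.6 CPM in the controls and 55.5, 51.3 and 50.8 CPM with overexpression. Its log2 fold change of 0.56 (standard error 0.06, Benjamini-Hochberg adjusted p = 8.41e-06, edgeR) was just short of the threshold for a call. MRPS6, of bacterial descent, had 106, 103 and 109 CPM in the controls and 146, 146 and 148 CPM with overexpression. The overexpressing libraries were nearly equal, and the log2 fold change was 0.47 (standard error 0.05, Benjamini-Hochberg adjusted p = 3.45e-06, edgeR). The transporter gene SLC5A3 lies within MRPS6, so reads may be shared between them. MRPS10, which in bacteria lies in the head of the subunit, was the small-subunit member that fell, from 119, 119 and 118 CPM to 94.3, 97.3 and 98.2 CPM. Its control libraries were almost identical, none of the groups overlapped, and the log2 fold change was -0.30 (standard error 0.05, Benjamini-Hochberg adjusted p = 0.000199, edgeR).

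The MRPS18 genes are paralogues of each other and homologues of a bacterial small-subunit protein, and their products occupy different places in the particle. MRPS18C, the small-subunit form measured here, had 24.9, 24.7 and 23.9 CPM in the controls and 29.6, 27.6 and 27.2 CPM with overexpression. Groups did not overlap, and the log2 fold change was 0.20 (standard error 0.07, Benjamini-Hochberg adjusted p = 0.0330, edgeR). This call by adjusted p was lost without GCNT1 overexpression replicates 1 or 3 and without control replicates 2 or 3. MRPS18A, which became a protein of the large subunit, had 55.5, 61.9 and 66.9 CPM in the controls and 66.6, 63.0 and 59.5 CPM with overexpression. The groups overlapped over most of their range, with a log2 fold change of 0.04 (standard error 0.07, Benjamini-Hochberg adjusted p = 0.695, edgeR). The difference between these paralogues was not tested.

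Grouped by the systematic names of their proteins, 45 measured members are named after a bacterial counterpart and 29 bear a name reserved for mitochondria. The latter include MRPS18A (mL66), although it is a homologue of a bacterial protein. Over all genes 28.3% rose and 29.3% fell. Of those named after a bacterial counterpart 15 (33.3%) rose and 8 (17.8%) fell, with a median log2 fold change of 0.08. Of those with a mitochondrial name 15 (51.7%) rose and 3 (10.3%) fell, with a median of 0.16. Without GCNT1 overexpression replicate 1 these counts were 9 and 10 for the first group and 15 and 6 for the other, and without control replicate 2 or GCNT1 overexpression replicate 3 the members with a bacterial counterpart that rose numbered 10. Within the small subunit the medians were 0.13 for the 15 proteins of bacterial name and 0.34 for the 9 of mitochondrial name, and within the large subunit 0.07 for 30 and 0.14 for 20. The difference between the classes was not tested.

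Levels were compared between genes as CPM per kilobase of the MANE Select transcript, since longer transcripts give more reads. In the controls the members ranged from 3.58 to 140 CPM per kilobase, with a middle range from 17.7 to 70.9, although their products stand in the ribosome in nearly equal numbers. MRPL20 was the highest at 140 CPM per kilobase and fell to 121 in GCNT1 overexpressing cells, and MRPS6 was next at 114 and rose to 158. The order of these 2 genes was thus the opposite in GCNT1 overexpressing cells, a change that was not tested as such. MRPL42 was the lowest at 3.58 CPM per kilobase, on a transcript of 15557 bases, followed by MRPS14 at 3.98 on a transcript of 2115 bases. The rank of MRPL42 rests on its long transcript. Its mean over all libraries was 59.6 CPM, and the median of the members was 55.4 CPM. Which transcripts the counting used is not given in the sources used here. MRPL42 had 57.6, 55.5 and 54.1 CPM in the controls and 59.0, 68.6 and 62.6 CPM with overexpression, groups that did not overlap, with a log2 fold change of 0.19 (Benjamini-Hochberg adjusted p = 0.0267, edgeR) that passed in 2 of 6 fits with a library left out, those without GCNT1 overexpression replicate 1 and without control replicate 1. The value for MRPL42 relative to the 50 nearest genes was -0.0464. MRPS14 had 8.03, 8.27 and 8.97 CPM in the controls and 8.73, 9.03 and 8.93 CPM with overexpression, overlapping groups with a log2 fold change of 0.08 (Benjamini-Hochberg adjusted p = 0.538, edgeR). Across the 74 members the order of the levels per kilobase was largely shared between the groups (Spearman's rho 0.960 across genes, which are not independent replicates).

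Position on the chromosome was described by the median log2 fold change of the 50 nearest analysed genes, members left out. These local medians ranged from -1.08 to 0.62 around the members. Across the 74 members the log2 fold change and the local median had a Pearson correlation of 0.746 and a Spearman correlation of 0.666, and without MRPL36 the Pearson correlation was 0.713. For the 10303 other genes placed on chromosomes and within the members' range of CPM the same correlations were 0.289 and 0.497. Genes share libraries, and neighbours share windows, so these values are descriptions across genes. Of the 12 members with a local median of at least 0.2, 12 rose. Of the 9 with a local median of -0.2 or lower, 7 fell and none rose. Among the 53 members in between, 18 rose and 4 fell. For the other genes within the same range of CPM, 60.3% rose in the first class, 64.4% fell and 6.78% rose in the next, and 26.4% rose and 26.8% fell in the last. In all, 26 of the 30 members that rose had a local median above 0, and 9 of the 11 that fell had one below 0, against 79.4% and 73.0% of those other genes. Differences between the members and these genes were not tested.

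**Figure D3:**
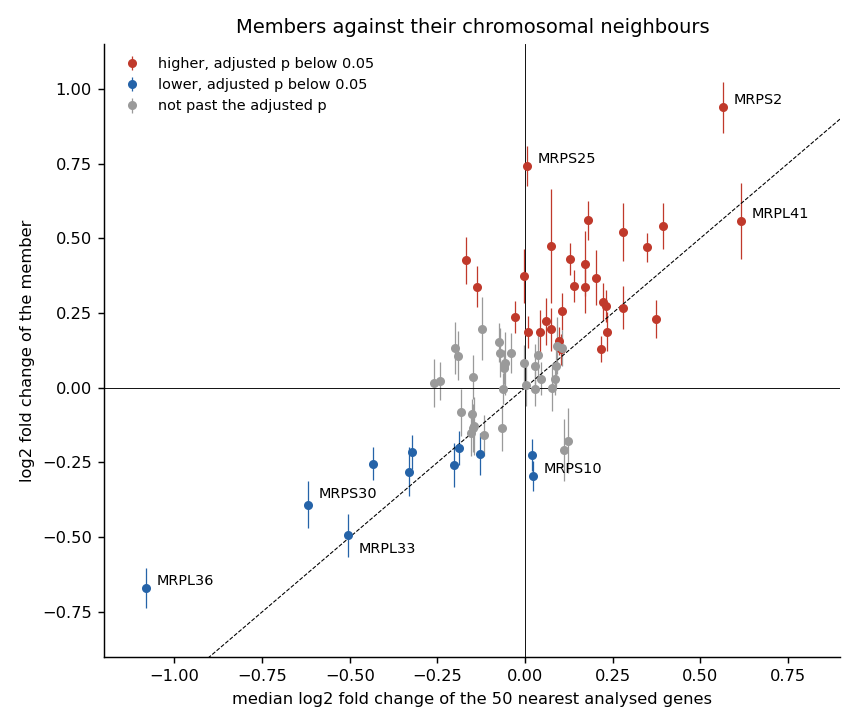
Log2 fold change of each of the 74 members (vertical axis, bars are standard errors) against the median log2 fold change of its 50 nearest analysed genes (horizontal axis). The dashed line marks equal values, and 55 of the 74 points lie above it, among them MRPL36 at the lower left, MRPS2 at the upper right and MRPS25 over neighbours with a median near 0 (Pearson's r 0.746, n = 74 genes).

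MRPL36 lies where the local median was -1.08 and none of the 50 neighbours had a fold change above 0, so that its own fall was smaller than that of its surroundings by 0.41 on the log2 scale. MRPL33 on chromosome 2 and MRPS30 on chromosome 5 had local medians of -0.50 and -0.62, close to or below their own changes. All 3 members on chromosome 9 rose, and they lie in regions that shifted upward, with local medians of 0.56 for MRPS2, 0.62 for MRPL41 and 0.39 for MRPL50. MRPS2 exceeded its neighbours by 0.37, MRPL50 by 0.15, and MRPL41 lay 0.06 below them. The 3 members on chromosome 12 rose as well, while of the 4 on chromosome 5, 2 fell and none rose. MRPS25 on chromosome 3 had a local median of 0.0044, with 25 of 50 neighbours above 0, and thus differed from its surroundings by nearly its whole change, 0.74. MRPS10 on chromosome 6 and MRPL17 on chromosome 11 fell where the local medians were 0.02 for each. Taken relative to the neighbours, the standard deviation of the members' log2 fold changes was 0.19 in place of 0.28, the median was 0.10, and 55 of 74 members lay above their local median. By this measure, which has no test of its own, 21 members changed sign, 11 of them past the adjusted p, which were MRPL36, MRPL33, MRPS30, MRPL12, MRPL18, MRPL20, MRPL41, MRPL42, MRPS11, MRPL39 and MRPS16.

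Several members share the region of their start with a gene transcribed in the other direction. A partner start within 1000 bases upstream, or overlapping by up to 200 bases, was found for 25 members. The sign of the log2 fold change was shared by 19 of these pairs, and of the 10 pairs in which both genes passed the adjusted p, 9 moved in the same direction (Pearson's r 0.718 across the 25 pairs, in which MRPL46 and MRPS11 count once each as partner of the other). Of the 1398 other genes with such a partner 68.6% shared its sign, and where both genes passed, 88.1% moved in the same direction. MRPS2 starts 813 bases from PIERCE1, which rose by 1.43. MRPL50 starts 233 bases from ZNF189, which rose by 0.45, MRPL46 starts 320 bases from MRPS11, a member that rose by 0.27, and MRPL18 starts 865 bases from TCP1, a chaperonin subunit gene that fell by 0.47. The pair that moved apart was MRPL51, which rose by 0.27, and NCAPD2, which fell by 0.35. The annotated bodies of 30 members overlap a gene on the opposite strand and those of 16 members a gene on the same strand. These include the called members MRPS2, which overlaps PIERCE1, and MRPS25, which overlaps NR2C2. Pseudogene copies named after members exist for 38 of them, 95 in all. Reads of the members may be shared with these genes and copies.

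Upstream sequence is shown for 5 members as examples, the called members MRPS25 and MRPL36, MRPL50 for the start shared with ZNF189, and MRPS10 and MRPL20 among those that fell and hold a motif within the stretch shown. MRPS2 was left out, as its stretch free of annotated exons is 51 bases long. The sequences are from RefSeq on GRCh38.p14, read 5′ to 3′ on the strand of the gene, here the minus strand in each case, and cover the longest stretch within 250 bases before the start that no annotated exon covers. These stretches lie at chr3:15065340-15065565 for MRPS25, chr5:1799896-1800087 for MRPL36, chr9:101398619-101398850 for MRPL50, chr6:42217862-42218111 for MRPS10 and chr1:1407294-1407543 for MRPL20. Capitals mark matches to the 4 motifs searched on both strands, which were GCATGCGC for NRF1, CCGGAAG for ETS factors such as GABPA, the E-box CACGTG for MYC and MAX, and AAGATGGCG for YY1.
MRPS25: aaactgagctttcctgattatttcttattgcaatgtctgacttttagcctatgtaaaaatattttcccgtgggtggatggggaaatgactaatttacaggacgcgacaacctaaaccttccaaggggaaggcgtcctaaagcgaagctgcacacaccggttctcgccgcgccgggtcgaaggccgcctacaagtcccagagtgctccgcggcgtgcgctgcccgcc
MRPL36: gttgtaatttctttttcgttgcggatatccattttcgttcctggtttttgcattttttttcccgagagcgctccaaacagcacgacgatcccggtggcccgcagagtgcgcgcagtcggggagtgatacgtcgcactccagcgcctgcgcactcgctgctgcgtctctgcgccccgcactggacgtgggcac
MRPL50: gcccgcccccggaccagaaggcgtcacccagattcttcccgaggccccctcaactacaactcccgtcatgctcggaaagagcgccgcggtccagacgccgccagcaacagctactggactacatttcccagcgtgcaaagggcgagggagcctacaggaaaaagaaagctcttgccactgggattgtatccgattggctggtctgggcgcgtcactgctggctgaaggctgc
MRPS10: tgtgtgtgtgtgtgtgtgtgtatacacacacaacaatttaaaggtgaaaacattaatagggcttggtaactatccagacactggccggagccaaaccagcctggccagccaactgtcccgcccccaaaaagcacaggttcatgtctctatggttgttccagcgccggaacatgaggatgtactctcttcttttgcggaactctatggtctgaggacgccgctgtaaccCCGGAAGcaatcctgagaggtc
MRPL20: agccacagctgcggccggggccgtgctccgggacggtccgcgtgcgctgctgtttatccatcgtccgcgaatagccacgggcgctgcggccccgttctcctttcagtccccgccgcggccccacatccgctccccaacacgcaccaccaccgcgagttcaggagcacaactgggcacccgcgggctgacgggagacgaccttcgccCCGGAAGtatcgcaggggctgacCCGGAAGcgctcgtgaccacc
MRPS10 has the ETS letters from 22 bases before its start, and MRPL20 has them from 44 and from 21 bases before. Matches in the promoter windows of MRPL36 (E-box and YY1), MRPL50 (YY1) and MRPS10 (YY1) lie outside the stretches printed.

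Promoter sequence from 250 bases before to 50 bases after the start was matched for 66 of the 74 members and for 10236 analysed genes. MRPL2, MRPL10, MRPL13, MRPL15, MRPL21, MRPL23, MRPL35 and MRPS28 were not matched. The ETS letters occurred in 30 of 66 members' promoters (45.5%) and in 19.99% of all promoters of this length, and the YY1 letters in 11 (16.7%) and in 4.38%. The NRF1 letters occurred in 5 members (7.58%) and in 5.94% of all, and the E-box in 4 (6.06%) and in 9.97%. None of the 4 occurred in 27 members. ETS letters were found in 11 of 27 members that rose, 6 of 11 that fell and 13 of 28 that did not pass the adjusted p, and YY1 letters in 3, 4 and 4 of these. A match describes the letters of the window, and binding was not measured.

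The 5 other mitoribosomal proteins of the list, named outside the MRPL and MRPS series, gave 2 rises and 1 fall, with a median log2 fold change of 0.14. CHCHD1, a small-subunit protein, rose from 88.6, 81.6 and 84.9 CPM to 110, 102 and 108 CPM (log2 fold change 0.33, Benjamini-Hochberg adjusted p = 0.000228, edgeR). Without control replicate 2 or GCNT1 overexpression replicate 3 the number of rises was 1. In the list of assembly factors 13 of 32 measured rose and 5 fell, with a median of 0.14. This list holds MDN1 and NLE1, which serve the cytosolic ribosome and did not pass the adjusted p, and without them the same numbers stand for 30 genes. TFB1M, the methyltransferase that modifies the small-subunit ribosomal RNA, fell from 29.0, 27.8 and 26.9 CPM to 17.6, 14.3 and 16.4 CPM. Its groups were well apart, with a log2 fold change of -0.80 (standard error 0.09, Benjamini-Hochberg adjusted p = 5.43e-06, edgeR). MALSU1, which keeps the large subunit from joining too early, rose from 20.9, 22.2 and 22.4 CPM to 34.8, 31.0 and 33.2 CPM. Here too the groups were apart, and the log2 fold change of 0.59 (standard error 0.08, Benjamini-Hochberg adjusted p = 1.88e-05, edgeR) was 0.56 without GCNT1 overexpression replicate 1 and 0.57 without control replicate 1, short of the threshold for a call.

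Mitochondrial translation factors start, extend and end the peptide chain. Of 15 measured 9 rose and 3 fell, with a median log2 fold change of 0.31. The called gene was MTRF1L, a peptide release factor, which fell from 28.9, 29.1 and 26.6 CPM to 17.1, 19.3 and 18.5 CPM. No overlap was seen, and the log2 fold change was -0.62 (standard error 0.08, Benjamini-Hochberg adjusted p = 2.16e-05, edgeR), or -0.58 and short of a call without GCNT1 overexpression replicate 1. Over all alternatives the smallest fall of MTRF1L was -0.56, in a fit that left no library out, also short of a call. Of 19 mitochondrial tRNA synthetases and amidotransferase subunits 6 rose and 2 fell, with a median of -0.01. The number of rises was 3 without GCNT1 overexpression replicate 3, 3 without control replicate 2 and 3 with DESeq2. MARS2, which charges the methionine tRNA, rose from 8.58, 9.88 and 8.46 CPM to 15.7, 17.0 and 14.4 CPM (log2 fold change 0.80, Benjamini-Hochberg adjusted p = 2.70e-05, edgeR).

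**Figure D4:**
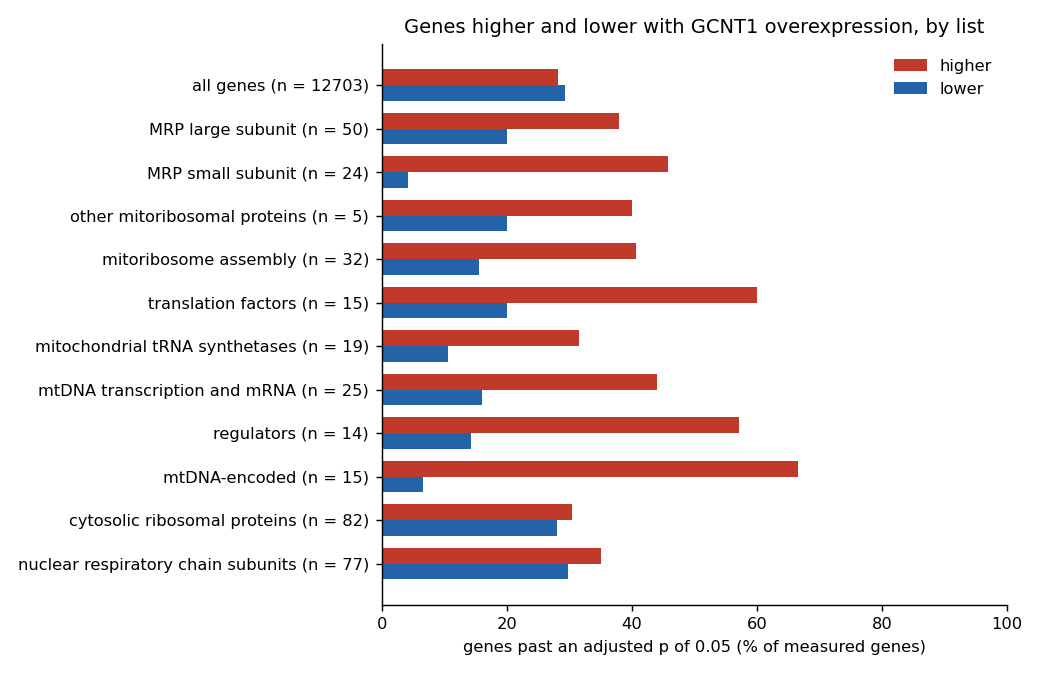
Share of the measured genes of each list that were higher or lower with GCNT1 overexpression at an adjusted p below 0.05 (horizontal bars, percent of the number given beside each name). Over all genes the shares are 28.3% and 29.3%, while the higher bar is the longer of the pair in the mitochondrial ribosomal protein (MRP) subunits and in each other list. The margin is small for cytosolic ribosomal proteins (30.5% and 28.05%) and for nuclear respiratory chain subunits (35.1% and 29.9%). Among the other mitoribosomal proteins the bars stand for 2 genes and 1 gene.

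Transcription of mitochondrial DNA and maturation of its transcripts provide the ribosomal RNAs and messengers. In this list 11 of 25 genes rose and 4 fell, with a median log2 fold change of 0.17. SUPV3L1, a helicase of RNA decay in the matrix, rose from 64.3, 63.1 and 62.6 CPM to 92.0, 98.9 and 95.7 CPM. SSBP1, which coats single-stranded mitochondrial DNA, rose from 11.1, 12.7 and 13.2 CPM to 20.7, 18.2 and 16.8 CPM. FASTKD3, a protein of mitochondrial mRNA metabolism, fell from 14.9, 14.1 and 13.4 CPM to 8.81, 9.39 and 8.29 CPM. None of these 3 genes had overlapping groups, and their log2 fold changes were 0.59, 0.58 and -0.68 (Benjamini-Hochberg adjusted p = 1.01e-06, 0.000346 and 7.13e-05, edgeR). SUPV3L1 was at 0.57 without GCNT1 overexpression replicate 2, and SSBP1 at 0.51 without GCNT1 overexpression replicate 1 and 0.52 without control replicate 1, below the threshold for a call.

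Nuclear regulators with known roles in mitochondrial gene expression gave 8 rises and 2 falls among 14 measured, with a median log2 fold change of 0.28. MYC, a transcription factor that binds promoters of many ribosome biogenesis genes, rose from 87.6, 89.0 and 98.4 CPM to 196, 195 and 174 CPM. The lowest overexpressing library had 174 CPM, against 98.4 CPM in the highest control, and the log2 fold change was 1.04 (standard error 0.06, Benjamini-Hochberg adjusted p = 2.05e-08, edgeR). PPARGC1B, a coactivator of mitochondrial biogenesis, rose from 8.66, 8.27 and 7.36 CPM to 12.4, 13.4 and 13.1 CPM (log2 fold change 0.68, Benjamini-Hochberg adjusted p = 9.77e-05, edgeR). No part of the members' changes was tested against these regulators.

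The products of mitochondrial DNA, which the mitoribosome either contains or translates, were represented by all 15 genes of the list. Here 10 rose, 1 fell and 4 did not pass the adjusted p, with a median log2 fold change of 0.25. ND3, a subunit of complex I, rose from 218, 221 and 236 CPM to 429, 397 and 416 CPM. CYTB, a subunit of complex III, rose from 1008, 1081 and 1184 CPM to 1966, 2046 and 2137 CPM. ND2, also of complex I, rose from 946, 1017 and 1150 CPM to 1695, 1687 and 1800 CPM. In these 3 genes all overexpressing libraries were above all controls, and the log2 fold changes were 0.88, 0.91 and 0.74 (Benjamini-Hochberg adjusted p = 8.18e-09, 2.36e-08 and 4.45e-07, edgeR). The ribosomal RNAs of the particle are RNR1 in the small and RNR2 in the large subunit. RNR1 had 164, 180 and 169 CPM in the controls and 250, 241 and 262 CPM with overexpression, a rise of 0.56 on the log2 scale, while RNR2 had 2506, 2632 and 2559 CPM and 2360, 2487 and 2648 CPM, overlapping groups with a log2 fold change of -0.04 (Benjamini-Hochberg adjusted p = 0.501, edgeR). ND1 was the gene that fell, by 0.19 on the log2 scale with overlapping groups, and it did not pass with library size alone, without control replicate 2 or without GCNT1 overexpression replicate 2. Together the list took 2.48%, 2.63% and 2.73% of the counts in the controls and 3.11%, 3.24% and 3.44% with overexpression. The libraries were made from polyadenylated RNA and nuclear copies of mitochondrial DNA exist, and their part in these values was not tested.

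**Figure D5:**
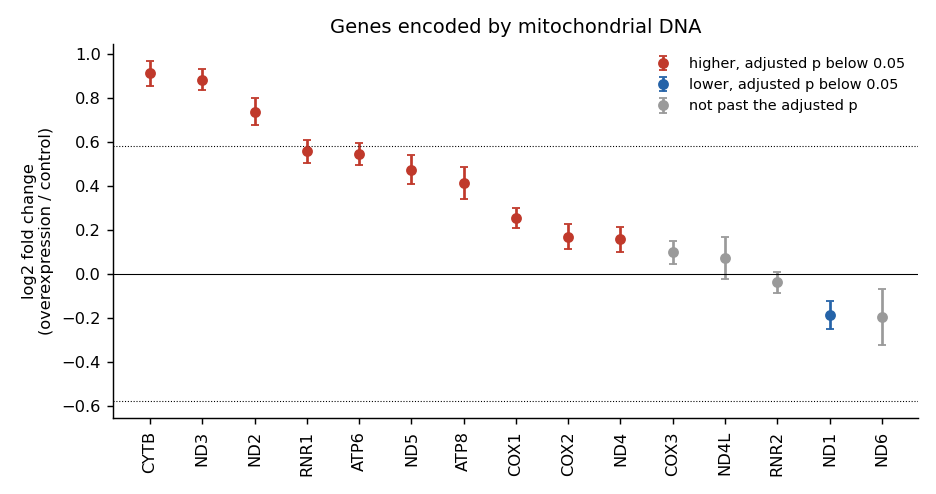
Log2 fold change (GCNT1 overexpression over control) of 15 genes encoded by mitochondrial DNA, sorted by value. Points are edgeR estimates, bars are standard errors and dotted lines mark log2 fold changes of 0.58 in either direction, with CYTB, ND3 and ND2 above the upper line.

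The proteins of the cytosolic ribosome and the nuclear subunits of the respiratory chain were counted for comparison. Of 82 cytosolic ribosomal protein genes 25 rose and 23 fell (median log2 fold change 0.03), and of 77 nuclear respiratory chain and ATP synthase genes 27 rose and 23 fell (median -0.01). Whether the MRP genes differ from these families was not tested.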

How the data were processed

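Gene counts per library, as deposited by the authors, were not normalized, and according to the methods of the study they were made with FastQC, Cutadapt, HISAT2 on hg38 and featureCounts. The annotation, the strand setting and the filter on low counts are not given in the sources used here. Entrez identifiers were matched to RefSeq symbols for 12661 of 12703 rows. All 6 libraries were fitted without a block in edgeR 4.0.16 (R 4.3.3) with TMM factors, and edgeR's quasi-likelihood p-values were adjusted by Benjamini-Hochberg over all genes. DESeq2 1.42.0 and limma 3.58.1 were alternatives. The edgeR, limma and DESeq2 steps were also run on simulated data, from which no value is used here. The standard error is the log2 fold change divided by the root of the F statistic. CPM are TMM-normalized, positions and MANE transcripts are from GENCODE 44, and tables were made in Python 3.11.15. Libraries of a group differed by more than sampling noise (chi-square per degree of freedom from 1.65 to 5.65). An exact permutation test of 3 against 3 libraries cannot go below p = 0.1. The p-values measure the spread between these cell lines only.

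Named members were those called, the 8 largest rises and 8 largest falls past the adjusted p, the 2 highest and 2 lowest per length, the MRPS18 paralogues, MRPL58, MRPS30 and MRPL12. From each related list the called genes, up to 5, or else the gene with the smallest p were named, as was GCNT1. Neighbouring and partner genes (NDUFS6, SLC5A3, PIERCE1, ZNF189, MRPS11, TCP1, and NCAPD2 with MRPL51), MRPL14, MRPL39, MRPS16, RNR1, RNR2 and ND1 were added after their values were seen. The members and lists were chosen with earlier results of these data known. Alternatives were another test, scaling or filter, a replicate block, each library left out, and values relative to neighbours. Those on lists, on the correlation with neighbours, on a window of 20 neighbours, on genes outside the members and without mitochondrial DNA were added after seeing the data, as were the shares of other genes by local median and by divergent partner.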

Additional observations from a re-analysis of the deposited data

How the results depend on the processing

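The 3 called members were called in every alternative test, scaling and filter except edgeR's glmTreat against the fold threshold, which called 2 higher and 0 lower. Library size alone called 6 (5 higher) and gave a median log2 fold change of 0.17. With 1 library left out, 3 to 6 members were called, 2 to 5 of them higher, and the correlation with the local median ranged from 0.722 to 0.750. The replicate numbers do not pair the libraries (correlations of same-numbered deviations -0.354, 0.0226 and -0.163). Between differently numbered libraries the correlations ranged from -0.288 (control 3 with GCNT1 overexpression 2) to 0.364 (control 3 with GCNT1 overexpression 1). Control 1 with GCNT1 overexpression 2 had 0.284, and the source of this shared variation was not tested. With a replicate block the called members numbered 3, the median was 0.11 and 34 members passed the adjusted p (23 higher, 11 lower), MRPL23, MRPL42 and MRPS18C no longer (adjusted p = 0.0807, 0.0643 and 0.0665 with the replicate block). DESeq2 passed 35. Relative to the 50 nearest genes the log2 values were 0.41 for MRPL36, 0.23 for MRPS30, 0.18 for MRPL18, 0.11 for MRPL20, 0.0491 for MRPL12, 0.0111 for MRPL33, -0.0587 for MRPL41 and -0.0464 for MRPL42, differences that were not tested. As a cut at 0.58 on these values, with the adjusted p of the main fit kept, 0 members lay lower with 50 or 20 neighbours and 2 higher, MRPS25 and MRPL14 (0.59) with 50 and MRPS25 and MRPS33 (0.64) with 20, but not MRPS2 (0.37 and 0.28). MRPL23, MRPL42 and MRPS18C did not pass with DESeq2 (adjusted p = 0.109, 0.0525 and 0.114), nor did GCNT1 (0.0821). The cause of these changes was not tested. GCNT1 had 8 to 35 counts and MRPL23 had 33 to 66, and the part of depth in these changes was not tested. The window of 20 neighbours and the alternatives of the correlation, the lists and the genes outside the members were chosen after seeing the data.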
